A study of Mus musculus with 9 samples.

Results

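Cd14 and 9 other genes by which cells sense bacterial lipopolysaccharide were followed in 9 regenerating mouse livers. The genes were Cd14, Tlr4, Tlr2, Ly96, Lbp, Myd88, Irak1, Irak4, Irak3 and Ticam2, out of 9319 named genes measured. The set was chosen from earlier results of these same arrays, the Cd14 group difference among them, so each group difference of a member is a description and carries no test. All probes whose annotated symbol was a member were taken. Of the 10 genes, 9 had a probe (14 probes in all), and 8 were measured, meaning that at least 1 probe had a detection p-value under 0.05 on at least 4 arrays. Irak4 had no probe under that symbol, and the single Ticam2 probe did not reach the detection level.

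Both groups were C57BL/6 mice whose livers were taken 12 h after partial hepatectomy, the surgical removal of liver lobes, to which the remaining lobes respond by growing. The 4 control livers were wild type (WT) with the treatment given as Control, and the labels do not say what these mice received. The 5 KO livers carried the genotype LTRβ-/-, the loss of the lymphotoxin β receptor, and these mice had been given Etanercept 24 h ahead of the operation. This drug is a soluble decoy receptor for TNF, and it takes up lymphotoxin α too. Genotype and drug changed together, so their parts cannot be told apart, and no unoperated liver was included. RNA came from whole liver and was read on Illumina bead arrays, 1 array per liver. The replicate numbers only name the livers.

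Lipopolysaccharide is the glycolipid of the outer membrane of Gram-negative bacteria, and the liver meets it in portal blood. LBP, a plasma protein made by hepatocytes, extracts it and passes it to CD14, which hands it to the complex of TLR4 and MD-2 (gene Ly96). TLR4 then signals through MyD88 and the IRAK kinases toward NF-κB, and through TRAM (gene Ticam2) toward interferon genes. Kupffer cells, monocytes and neutrophils carry CD14, and hepatocytes can make it too.

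The mean bead signal was 336 to 438 intensity units on 8 arrays and 143 on KO 4, the dim array. Ltbr, the deleted gene, read 6.41 to 6.97 on the normalized log2 scale in the controls and 4.87 to 6.77 in the KO livers. The groups overlapped on this scale, while in the authors' values every KO liver (7.11 to 7.30) lay below every control (7.57 to 7.76). Whether the probe lies in the deleted part is not known. Of 11559 tested features (1 probe per gene, and probes without a symbol), 0.00865% passed limma's threshold, an adjusted p under 0.05, and 4.09% fell under 0.05 before adjustment. Of the 8 measured members, limma passed 0, and Cd14 was the 1 member with an unadjusted p under 0.05; nothing is read from these counts, because this contrast was known when the genes were chosen. The KO and control ranges overlapped for all 8, while they did not for 0.796% of all features.

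Cd14, the co-receptor, had the highest group difference of the 8 members and was detected on all 9 arrays. Its normalized log2 expression was 10.07, 7.58, 9.20 and 7.14 in control 1 to control 4. In KO 1 to KO 5 it was 10.58, 12.08, 8.61, 9.91 and 10.93. KO 1, KO 2 and KO 5 lay above every control, while KO 3 lay below control 1 and control 3, and KO 4 below control 1. The KO mean was 10.42 ± 1.28 (SD, n = 5) and the control mean 8.50 ± 1.37 (SD, n = 4), a difference of 1.93 ± 0.73 (SE), or 3.80-fold. RefSeq (GRCm38.p6) places Cd14, Entrez gene 12475, at bases 36725064 to 36726815 of chromosome 18. In whole liver, a change in the number of cells of a type and a change in RNA per cell cannot be told apart.

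Livers of the same group differed widely in Cd14. Its pooled within-group SD of 1.32 stood at the 98.9th percentile of all features, whose median was 0.47. Before normalization its signal ran from 211 to 1473 intensity units in the controls and from 216 to 4645 in the KO livers. The lowest KO signal, 216, was that of the dim array KO 4, which normalization placed at 9.91, against 7.14 for control 4 with a signal of 211. Without KO 4 the difference was 2.05.

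**Figure D1:**
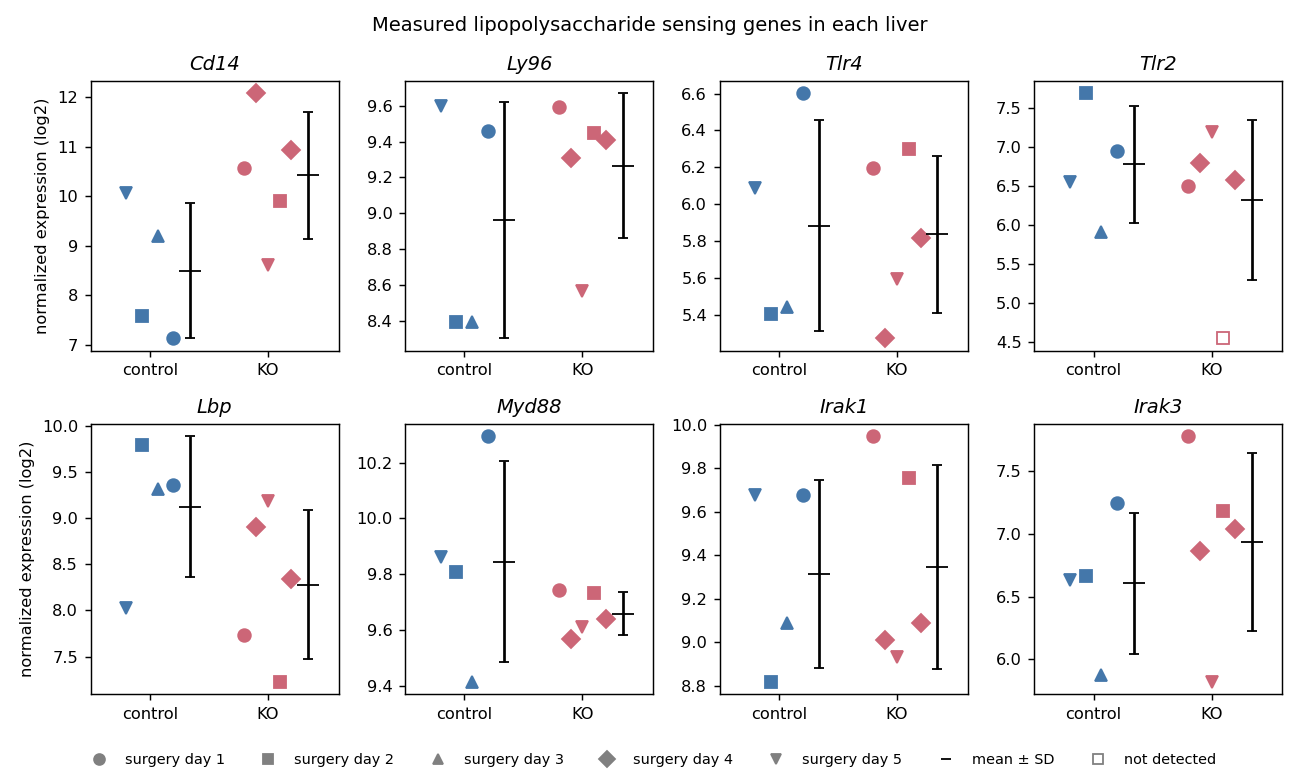
Normalized log2 expression (y axis, a separate scale in each panel) of the 8 measured genes in each liver, with the group on the x axis, the surgery day as marker shape, and the mean ± SD of each group beside the points; an open marker was not detected. Cd14 spans 7.14 to 12.08 and its groups overlap, as do those of the other 7 genes.

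The receptor complex itself showed smaller group differences. Ly96 encodes MD-2, the subunit of the complex that holds the lipid (chromosome 1, 16688456 to 16709605). Its log2 expression was 9.60, 8.39, 8.39 and 9.46 in control 1 to control 4. In KO 1 to KO 5 it was 9.59, 9.31, 8.57, 9.45 and 9.41. Control 2, control 3 and KO 3 formed the low end, and the highest value was that of control 1. The difference was 0.30 ± 0.33 (SE), and it was -0.16 with median scaling, under which the median of all features was -0.26 in place of -0.02. It was 0.12 without control 2 or without control 3, 0.52 without control 1, 0.47 without control 4, 0.48 without KO 3 and 0.05 with surgery day as a block.

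Tlr4, the signalling receptor (chromosome 4, 66827551 to 66846581), was read by 3 probes, of which 1 passed the detection rule. That probe gave 6.09, 5.40, 5.44 and 6.60 in control 1 to control 4. It gave 6.20, 5.27, 5.60, 6.30 and 5.81 in KO 1 to KO 5. Neither group was set apart, with a difference of -0.05 ± 0.32 (SE) whose sign changed in 6 of 28 alternatives, among them those without control 1, control 4, KO 2 or KO 3. Of its other 2 probes, 1 was detected on no array and 1 on 2 KO arrays.

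Tlr2, the receptor for bacterial lipoproteins, can work with CD14 as well (chromosome 3, 83836272 to 83841824). Its log2 expression was 6.55, 7.68, 5.91 and 6.95 in control 1 to control 4. In KO 1 to KO 5 it was 6.50, 6.79, 7.18, 4.54 and 6.57. The low value belonged to KO 4, where Tlr2 was not detected, and the other KO livers lay inside the control range. The difference of -0.46 ± 0.52 (SE) was -0.01 without KO 4, -0.15 without control 2 and -0.74 without control 3.

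Lbp, which encodes the plasma carrier of lipopolysaccharide, had the lowest group difference of the 8 members (chromosome 2, 158306493 to 158332852). Its log2 expression was 8.02, 9.79, 9.32 and 9.36 in control 1 to control 4. The KO livers, in the order 1 to 5, had 7.74, 8.91, 9.19, 7.23 and 8.34. Control 1, the control with the most Cd14, was the control with the least Lbp. The KO mean was 8.28 ± 0.81 (SD, n = 5) and the control mean 9.12 ± 0.76 (SD, n = 4), a difference of -0.84 ± 0.46 (SE). Without KO 4 it was -0.58.

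Myd88, the adaptor that joins TLR4 and TLR2 to the IRAK kinases (chromosome 9, 119335934 to 119340018), was read by 2 detected probes. The brighter gave 9.86, 9.81, 9.41 and 10.29 in control 1 to control 4. It gave 9.74, 9.57, 9.61, 9.73 and 9.64 in KO 1 to KO 5. The KO livers were close to each other, within an SD of 0.08, and lay inside the wider control range. The difference was -0.19 ± 0.22 (SE), and the dimmer probe differed by -0.43, in the same direction. Myd88 was the member whose difference kept its sign in all 29 alternatives, from -0.65 with median scaling to -0.04 without control 4; it was -0.33 without control 3.

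Irak1, a kinase recruited through MyD88 (chromosome X, 74013914 to 74023921), was read by 3 detected probes. The brightest gave 8.82 to 9.68 in the controls and 8.93 to 9.95 in the KO livers. Its difference of 0.03 ± 0.30 (SE) changed sign in 11 of 29 alternatives, those without control 2, control 3, KO 1 or KO 4 among them, and the other probes differed by 0.11 and -0.32. Irak3 encodes IRAK-M, an inhibitor of the pathway found mainly in monocytes and macrophages (chromosome 10, 120141648 to 120202130). Its log2 expression was 6.64, 6.67, 5.88 and 7.24 in control 1 to control 4. In KO 1 to KO 5 it was 7.77, 6.87, 5.82, 7.18 and 7.04. KO 3 held the lowest and KO 1 the highest value of all livers, and the difference was 0.33 ± 0.39 (SE). It was 0.09 without control 3, 0.12 without KO 1, 0.54 without control 4, 0.61 without KO 3 and 0.08 with surgery day as a block. Ticam2, the TRAM adaptor, was detected on 0 of 4 control arrays and on 2 of 5 KO arrays (KO 1 and KO 2), and is given no fold.

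**Figure D2:**
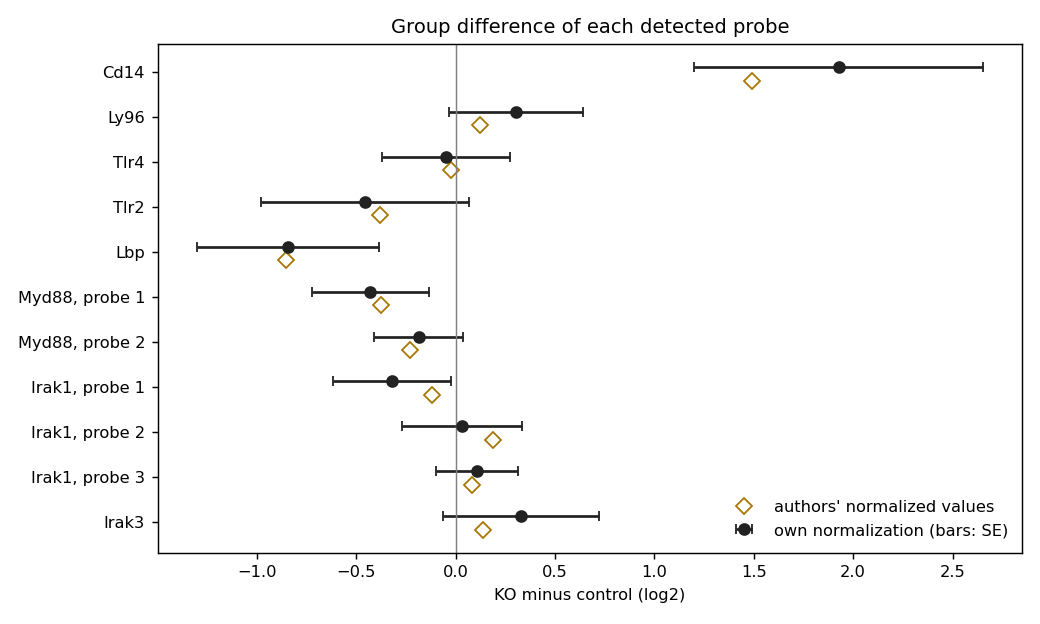
KO minus control differences on the log2 scale (x axis) of the 11 detected probes of these genes, as means with SE after the normalization used here and as points for the authors' normalized values. Cd14 lies at 1.93 and 1.49, Lbp at -0.84 and -0.85, and the Irak1 probes lie on both sides of 0.

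Upstream sequence was read for 5 of the members (7 windows, RefSeq, GRCm38.p6), each from 250 bases before to 50 after an annotated transcript start. The other members, Cd14 among them, were left out of this search, so nothing is said of their upstream sequence. For 4 of the 7 windows the start used is not the outermost one of the gene. Each window was searched on both strands for an interferon-stimulated response element core, GAAANNGAAA, and for an NF-κB motif, GGGNNNTTCC. Among all 32851 promoters of this length, 3.44% held the former and 5.56% the latter. The windows of the Irak1, Irak3 and Irak4 genes held neither in these letters. The Myd88 window, set on the outermost start of the gene, held 1 interferon-type match, which begins at -40 from that start. It is shown because Myd88 kept the sign of its difference in all 29 alternatives, and it is printed 5′ to 3′ on the gene's strand (minus), with the match in capitals, from chr9:119339969-119340268. The Tlr2 window, chr3:83841559-83841858, is set on a start 216 bases inside the gene, and its 1 NF-κB match begins 43 bases after the outermost start of the gene. A match is a run of letters in the genome and was not tested for binding.
Myd88: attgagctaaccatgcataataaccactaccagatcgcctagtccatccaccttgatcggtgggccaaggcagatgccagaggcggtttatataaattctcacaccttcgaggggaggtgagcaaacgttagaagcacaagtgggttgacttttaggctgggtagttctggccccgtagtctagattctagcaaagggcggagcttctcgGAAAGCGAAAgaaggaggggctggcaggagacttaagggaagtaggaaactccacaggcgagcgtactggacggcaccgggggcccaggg

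The livers operated on the same day give 3 pairs of 1 control and 1 KO liver, shown without a test. On day 1 Cd14 was 3.44 higher on the log2 scale in KO 1 than in control 4, and on day 2 it was 2.34 higher in KO 4 than in control 2. On day 5 the order was turned, with KO 3 differing from control 1 by -1.46. Lbp gave the mirror pattern, with -1.62 on day 1, -2.56 on day 2 and 1.16 on day 5. Ly96, Irak1, Irak3 and Tlr2 also took the opposite sign on day 5 (-1.03, -0.75, -0.81 and 0.63) from that on days 1 and 2. The share of all features that did so was not taken, so nothing is read from this turn about the members. Across genes, the deviations of control 1 and KO 3 from their group means correlated at -0.56. Myd88 was lower in the KO liver of each pair, by -0.55, -0.08 and -0.25. With surgery day as a block in the fit, Cd14 differed by 1.44, Lbp by -1.01 and Tlr2 by -0.99, the last in place of -0.46. Surgery days 3 and 4 held 1 group each, so they give no pair.

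**Figure D3:**
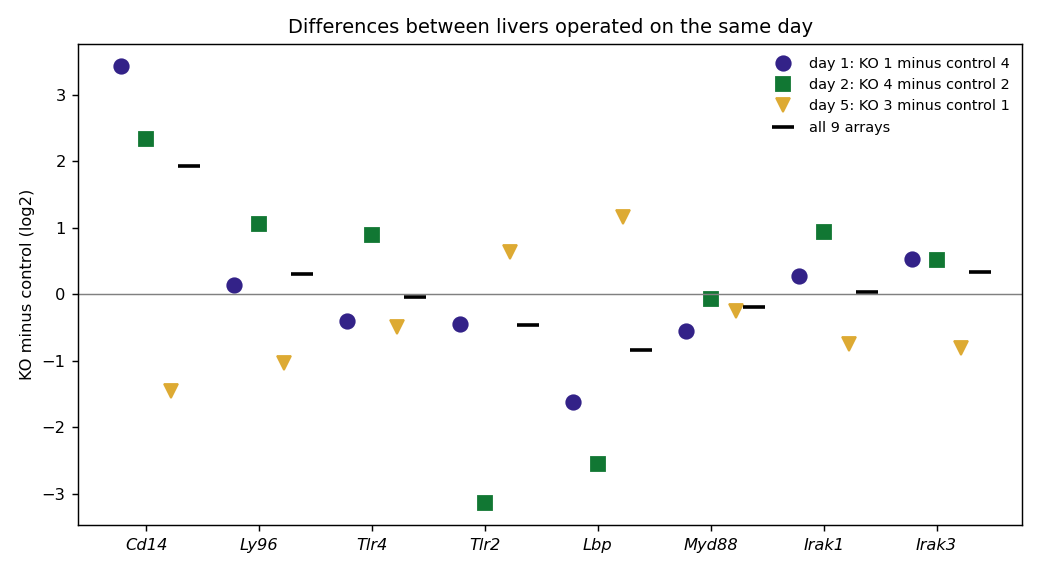
KO minus control differences on the log2 scale (y axis) of the 8 genes (x axis) within each of the 3 surgery days that held 1 liver of each group, with the difference over all 9 arrays as a dash. Cd14 is at 3.44 and 2.34 on days 1 and 2 and at -1.46 on day 5, and Lbp runs the other way.

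The authors' own normalized values gave each of the 8 genes a difference of the same sign, and Cd14 a narrower spread. In these values Cd14 was 8.46 ± 0.64 (SD, n = 4) in the controls and 9.95 ± 0.55 (SD, n = 5) in the KO livers, a difference of 1.49. Control 1 at 9.24 and KO 3 at 9.15 were the livers that overlapped. The dimmer Myd88 probe read 7.97 to 8.22 in the controls and 7.65 to 7.79 in the KO livers without overlap. An Irak1 probe also separated the groups, with a difference of 0.08. These were 2 of the 11 detected member probes, while the groups did not overlap for 13.4% of all detected probes. In limma on the authors' values, Cd14 was the 1 measured member of 8 past an adjusted p under 0.05, where 9.27% of all features passed, and 0 features passed with surgery day as a block (515 at an unadjusted p under 0.05). Surgery day had already been removed from these values in some way: the mean absolute day coefficient against day 1 was 0.0512 for day 3 and at most 3.64e-06 for the other days, so the fit without the block counts too many degrees of freedom.

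How the 8 genes varied from liver to liver within a group does not rest on the group contrast, and it was examined after the data had been seen. Group means were subtracted and all 28 pairs of genes were compared over the 9 arrays with exact permutation tests within groups (two-sided, 2880 rearrangements). After adjustment over the 28 pairs 0 pairs passed, and 8 had an unadjusted p under 0.05 for Pearson's r. Tlr4 and Myd88 gave r = 0.79 and Spearman's rho = 0.90 (exact permutation p = 0.00312 and 0.00625, adjusted 0.0875 and 0.0648). Without KO 2 and control 4, the arrays farthest from the median of Tlr4, r was 0.59. The highest r was that of Tlr4 and Irak1, 0.88 with rho = 0.77 (exact permutation p = 0.0142 and 0.0323, adjusted 0.0903 and 0.119). Without KO 2 and control 4 this r was 0.95. Lbp and Irak1 gave the lowest r, -0.82, and rho = -0.85 (exact permutation p = 0.0208 and 0.0215, adjusted 0.0903 and 0.102), with r = -0.81 without KO 4 and control 1. With the other members Cd14 gave r from -0.42 for Myd88 to 0.37 for Ly96. Without KO 4 it gave r = -0.60 with Tlr2 and r = -0.56 with Lbp, in place of -0.21 and -0.36. All values of 1 liver share an array and its normalization.

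The genes whose values were most like those of Cd14 were not among the other members, and they are named by likeness alone. Whether they respond to lipopolysaccharide was not examined. Over the 9 arrays these were Klf6 (Pearson's r 0.98), Sdcbp2 (0.98), Gtf2f2 (0.98), Edn1 (0.97) and Dusp5 (0.97), with Spearman's rho from 0.93 to 1. Klf6 is a transcription factor gene induced early by injury and growth signals, Edn1 encodes the peptide endothelin 1, and Dusp5 encodes a phosphatase that acts on ERK. Klf6 ranged from 8.86 to 11.20 in the controls and from 9.93 to 12.06 in the KO livers, and its order over the livers was that of Cd14. After each group's mean was subtracted, the highest values were those of Slc39a14, a metal transporter gene (r 0.99), Frmd6, Klf6, Hilpda and Sdcbp2 (0.97 each). These coefficients are the top of 9319 named genes over 9 points, so they describe the likeness and carry no p.

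Other genes of the pathway were taken as lists that hold none of the 8. As a background for these lists and the marker lists below, 47.6% of all features had a positive difference. In limma 4.09% of all features had an unadjusted p under 0.05. Of 37 other receptor and signalling genes 26 were measured, 16 with a positive and 10 with a negative difference, and limma passed 0 of them (1 at an unadjusted p under 0.05). Their median was 0.14, against -0.02 for all features, and it was -0.17 with median scaling (7 positive, 19 negative). It was 0.04 without KO 2, 0.06 without control 4 and 0.01 with surgery day as a block. Ly86, which encodes MD-1, the partner of the TLR4 homologue CD180, differed by 0.53 ± 0.23 (SE). Ikbke, a kinase upstream of interferon genes, differed by -0.77 ± 0.43 (SE), and Tab3, a partner of the kinase TAK1, by 0.54 ± 0.34 (SE). Each had a limma adjusted p of 0.931. Ikbke read 4.70 in KO 4, the dim array, 5.82 to 7.02 in the other KO livers and 6.64 to 7.29 in the controls.

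Of 18 genes for binding, uptake and detoxification of lipopolysaccharide, 9 were measured, 7 with a positive difference (4 in the authors' values), and limma passed 0 (1 at an unadjusted p under 0.05). Their median was 0.10, and with 1 array left out it ran from 0.01 without control 4, through 0.03 without KO 2 or KO 3 and 0.06 without control 1, to 0.17 without control 2, 0.21 without KO 4 and 0.22 without KO 1. The scavenger receptor gene Marco, found on Kupffer cells, read 6.29 to 7.72 in the controls and 7.76 to 8.98 in the KO livers. These ranges did not overlap, as was so for 0.796% of all features. The Marco difference was 1.10 ± 0.35 (SE) with a limma adjusted p of 0.931. Itgb2, an integrin subunit gene of leukocytes, differed by 0.65 ± 0.54 (SE). It read 7.84 in KO 4, the dim array, 4.89 to 5.33 in the other KO livers and 4.84 to 5.18 in the controls. Gsdmd, which encodes the pore-forming gasdermin D, differed by -0.34 ± 0.40 (SE).

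Of 41 genes that lipopolysaccharide is known to induce in myeloid cells or liver, 31 were measured, 14 with a positive and 17 with a negative difference. Limma passed 0 (4 at an unadjusted p under 0.05). Their median was -0.23, but -0.02 without KO 4, -0.12 without KO 1, -0.13 without control 2 and 0.05 with cyclic loess. It was -0.51 with a detection p under 0.01 on all 9 arrays and -0.39 with surgery day as a block. With median scaling it was -0.32, and without KO 3 it was -0.31. Socs3, a feedback inhibitor of cytokine signalling, averaged 10.30 ± 0.40 (SD, n = 4) in the controls and 9.25 ± 0.54 (SD, n = 5) in the KO livers, where it reached at most 9.97. All KO livers lay below all controls, with a difference of -1.05 ± 0.31 (SE). Cxcl2, which encodes a chemokine that attracts neutrophils, read 6.62, 4.84, 5.02 and 4.96 in control 1 to control 4. KO 1 to KO 5 read 6.69, 8.52, 5.74, 6.77 and 8.63. Control 1 was again the highest control and KO 3 the lowest KO liver, as for Cd14, and the difference was 1.91 ± 0.61 (SE). Control 2 to control 4 lay near the lower end of the scale. On the control 2 array, a Tlr4 probe at 4.94 had a detection p-value of 0.0502. The size of the Cxcl2 difference is therefore uncertain. Dusp1, a phosphatase gene that limits MAP kinase signalling, differed by 0.78 ± 0.31 (SE). Each had a limma adjusted p of 0.931. Tnf, Il6, Ptgs2 and Nos2 were detected on no array.

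**Figure D4:**
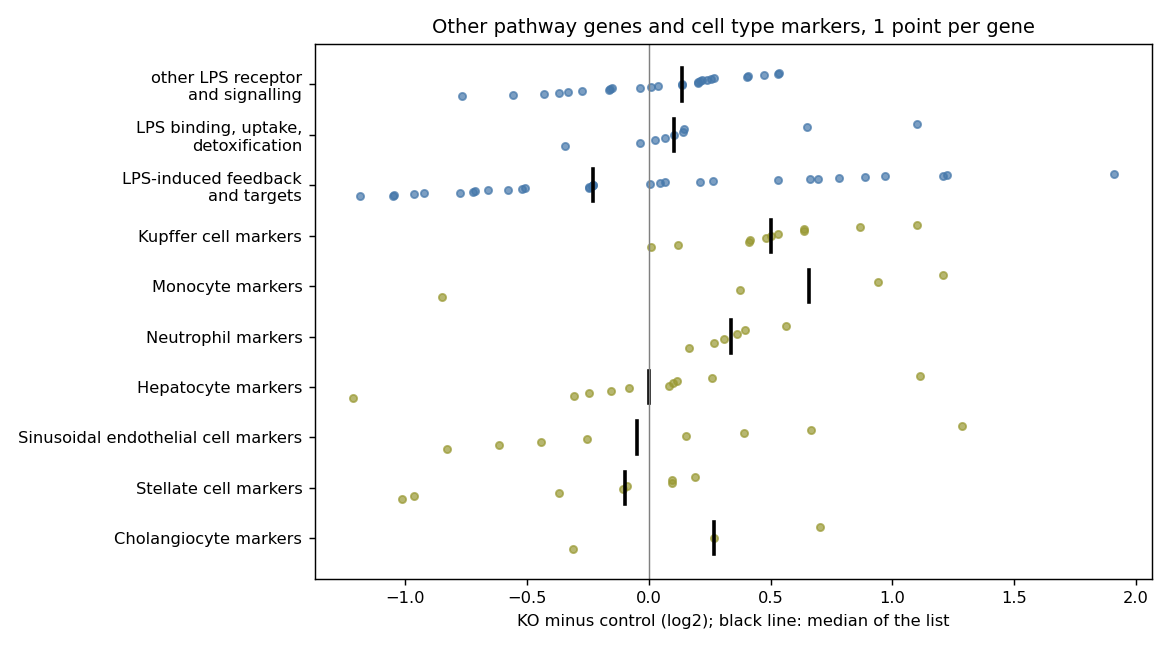
KO minus control differences on the log2 scale (x axis) of the measured genes of 3 pathway lists and 7 cell type marker lists (rows), 1 point per gene with the list median as a black line. All 11 Kupffer cell markers lie above 0 in this normalization (8 with median scaling, 9 in the authors' values), as do 47.6% of all features. The lipopolysaccharide-induced genes lie on both sides with a median of -0.23. That median was -0.02 without KO 4, 0.05 with cyclic loess and -0.51 with a detection p under 0.01 on all 9 arrays.

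Markers of the cells that carry CD14 were set beside it. Of 13 Kupffer cell markers (Marco among them) 11 were measured and all 11 had a positive difference (median 0.50), against 8 with median scaling (median 0.15) and 9 in the authors' values (median 0.28). Of all features, 47.6% had a positive difference in this normalization. In limma 0 of the markers passed, with 4 at an unadjusted p under 0.05, against 4.09% of all features. Their summed normalized signal was 3718 to 6413 units in the controls and 6771 to 7968 in the KO livers, and Cd5l was detected on no array. The groups overlapped in the marker score, the mean log2 deviation of the markers. It was -0.77 to 0.07 in the controls and -0.02 to 0.52 in the KO livers. Vsig4, a complement receptor of Kupffer cells, differed by 0.64 ± 0.22 (SE), and Timd4, a marker of resident Kupffer cells, by 0.87 ± 0.34 (SE), each with a limma adjusted p of 0.931. Timd4 read 8.26 in KO 4, the dim array, 6.34 to 7.23 in the other KO livers and 6.10 to 6.48 in the controls. Control 1, the control with the most Cd14, had the lowest Kupffer cell score of all 9 livers (-0.77, the mean log2 deviation of the markers), and KO 3, the KO liver with the least Cd14, was at 0.33. Within groups, Cd14 and the Kupffer cell score gave r = -0.23 and rho = -0.18 (exact permutation p = 0.585 and 0.669, adjusted over 8 marker lists 0.669 and 0.699), with r = -0.31 without KO 3 and control 4.

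Of 13 neutrophil markers 6 were measured, 6 with a positive difference (median 0.34), against 4 with median scaling (median 0.05), and 0 passed (0 also at an unadjusted p under 0.05 in limma). Their summed signal was 663 to 1418 in the controls and 695 to 1998 in the KO livers, and Ngp, Mmp8 and Mpo were detected on no array. The median was 0.02 with surgery day as a block, 0.17 without KO 2, 0.21 without control 3 and 0.52 without KO 3. The neutrophil score was 0.37, -0.23, -0.58 and -0.33 in control 1 to control 4. It was 0.16, 0.58, -0.49, 0.49 and 0.02 in KO 1 to KO 5. Control 1 and KO 2, with the most Cd14 in their groups, had the highest scores, while control 3, second in Cd14 among the controls, had the lowest, and KO 4, second lowest in Cd14 among the KO livers, had the second highest of its group. Within groups the neutrophil score gave r = 0.64 and rho = 0.62 with Cd14 (exact permutation p = 0.0910 and 0.111, adjusted 0.342 and 0.396). It gave r = 0.40 without KO 3 and control 4, and r = 0.75 without KO 4, the dim array. In KO 4 the markers Elane and Mmp9 read 7.38 and 7.33, against at most 5.19 and 5.75 in the other livers. Of 10 monocyte markers 4 were measured, 3 with a positive difference (median 0.66, and 0.28 with median scaling). Limma passed 0 of the 4, with 2 at an unadjusted p under 0.05, against 4.09% of all features. Chil3 differed by 0.94 ± 0.35 (SE), Lyz2 by 1.21 ± 0.49 (SE), Plac8 by 0.37 ± 0.29 (SE) and Fn1 by -0.85 ± 0.73 (SE). Their summed signal was 1105 to 4982 in the controls and 1504 to 3909 in the KO livers. Fn1 had the highest mean of the 4 in both groups, so it weighed most in this sum. Ccr2, Ms4a4c, S100a4 and Itgam were detected on no array. Within groups the monocyte score gave r = -0.57 and rho = -0.52 with Cd14 (exact permutation p = 0.142 and 0.190, adjusted 0.342 and 0.396), and r = -0.58 without KO 3 and control 4. The 10 hepatocyte markers, all measured, had a median of 0.00177 (-0.41 with median scaling, -0.11 without KO 4) and a summed signal of 109171 to 115138 in the controls and 103667 to 118539 in the KO livers. Single arrays moved the medians of the remaining lists. The median was -0.05 for the 8 markers of sinusoidal endothelial cells and ran from -0.18 without KO 2 to 0.07 without KO 4. It was -0.10 for the 8 of stellate cells and ran from -0.28 without KO 2 to 0.05 without control 2, with -0.01 without KO 4. It was 0.27 for the 3 measured of cholangiocytes, 0.12 without control 3 and 0.03 without KO 4. Cd3e, the 1 measured marker of T and B cells, differed by 0.17, by 0.05 without KO 1 and by 0.31 without control 4. The part of these cells in the Cd14 values was not tested.

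**Figure D5:**
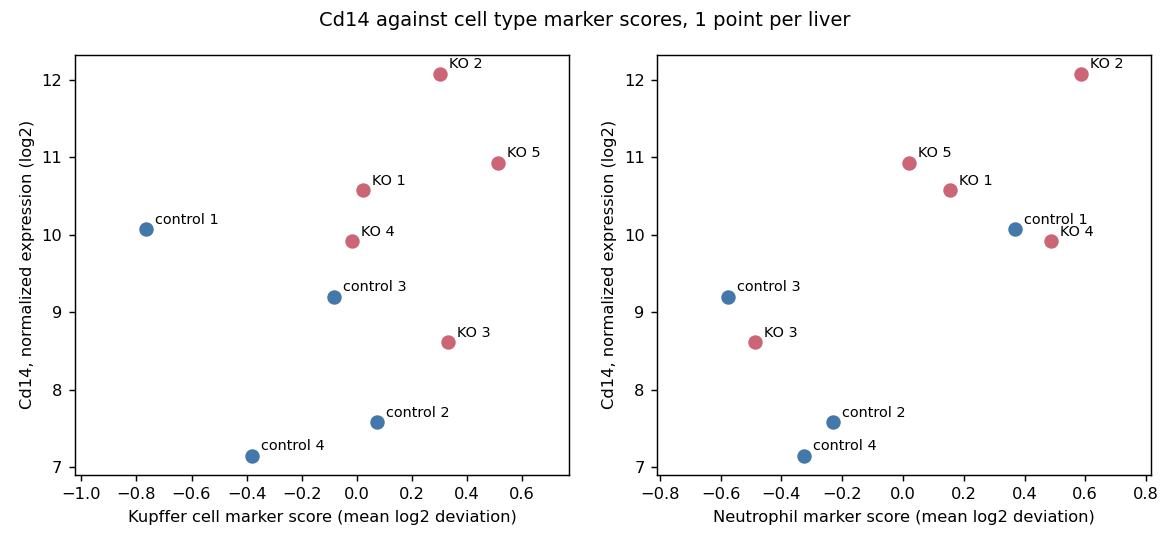
Normalized log2 expression of Cd14 (y axis) against the score of the Kupffer cell markers (left) and of the neutrophil markers (right), each the mean log2 deviation of the markers in a liver (x axis), with 1 point per liver coloured by group. Control 1 has the lowest Kupffer cell score, -0.77, and a neutrophil score of 0.37, and control 3 has the lowest neutrophil score, -0.58.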

How the data were processed

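Per the file headers, each of the 9 arrays has 2 deposited columns before normalization: the intensity of 45281 probes and the detection p-value of each. The authors' deposited normalized values are on a log2 scale, judged by their range; the submitters' processing notes name Partek (version not stated) and no steps. All 27 value columns were used.

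Signals were corrected with limma neqc (control level from the detection p-values, offset 16), quantile-normalized and log2-transformed. Detection (p under 0.05) was required on 4 or more arrays, which 15687 probes met, and the probe with the highest mean stood for a gene, giving 11559 features. The platform annotation gave 1 symbol for 34885 probes, several for 18 and none for 10378, and symbols were updated by Entrez ID from RefSeq GRCm38.p6 (34807 matched). Groups were compared with limma (lmFit, eBayes, two-sided, no covariates, Benjamini-Hochberg over all features), and the code was tested on simulated data. Differences are KO minus control. The number of arrays limits precision: the median SE was 0.31.

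The members, lists and rule for named genes were chosen with earlier results of these data known. Named were all members, the 3 genes with the smallest p of each main list and the 5 genes most like Cd14 (clone names left out). Of the marker lists, those of cells that carry CD14 were named more fully. Nothing says more of the livers than that they are separate samples. Same-day livers pair the groups on 3 days by label only. Their deviations from the group means correlated across genes at 0.17, -0.41 and -0.56 on days 1, 2 and 5. On day 4 those of KO 2 and KO 5 correlated at 0.34. The sign differed between days, and the day block was taken as an alternative. Others were slide, single arrays left out, normalizations, filters, array weights and the authors' values; those values without KO 4 and the tests of pairs within groups were added after seeing the data. The tools were R 4.3.3, limma 3.58.1, Python 3.11.15 and matplotlib 3.10.9.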

Additional observations from a re-analysis of the deposited data

Results flagged for a closer look

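Each detected member probe was examined in both groups (22 sets of 4 or 5 arrays) for a liver far from the others of its group, and chance flags about 1 set in 20. In KO 4, the dim array, the value of Tlr2 was 4.54, with the remaining KO livers at 6.50 to 7.18, and it was not detected there. In KO 3, that of Ly96 was 8.57, with the remaining KO livers at 9.31 to 9.59; it lay inside the control range of 8.39 to 9.60.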

How the results depend on the processing

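Cd14 kept a positive difference in 28 of 29 alternatives; it was 3.44 within surgery day 1 and -1.46 within day 5, each 1 array against 1, and 1.44 with surgery day as a replicate block. Lbp, Tlr2 and Irak3 kept their signs in 27 of 28, with day 5 as the exception for each, and Ly96 in 27 of 29. The median difference of the 8 members was -0.01, but 0.71 within day 2 and -0.62 within day 5, and between -0.14 and 0.17 with 1 array left out. The cause was not tested. Leaving out 1 array at a time moved the count of features past the limma threshold between 0 and 4, the latter without KO 4. The count was 0 with the day block (3 residual degrees of freedom; 175 at an unadjusted p under 0.05), with slide as a term (486), on slide 1 (334) or slide 2 (71) alone, with median scaling (108) and with the mean of a gene's probes (483). It was 10 with array quality weights, 1072 in the authors' values (396 higher, 676 lower), 413 in those without KO 4, and 0 in those with the day block (515). In the normalization used here no member passed with or without the day block, so the block had no call of a member to change. Over the other members and lists, 45 of 517 values moved by more than 1 SD and 66 changed sign. The filter at a detection p under 0.01 on all 9 arrays left Cd14, Ly96, Myd88 and Irak1. On KO 4 9493 probes were detected, against at least 13926 on the others.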
